A study of Mus musculus with 2 samples.

Results

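The genes of interleukin 1 (IL-1) signalling studied here were Il1a and Il1b, which encode the agonists, Il1rn, which encodes the receptor antagonist, Il1r1, the signalling receptor, Il1rap, its accessory chain, and Il1r2, the decoy receptor. The members were chosen by symbol, and all 6 were found among the 32285 features of both count matrices. The samples were subcutaneous tumors grown in female BALB/c mice from J558, an established mouse plasmacytoma cell line. One mouse received TAK-931, an oral inhibitor of the kinase CDC7, at 60 mg/kg daily for 6 days, and the other received the 0.5% methylcellulose vehicle on the same schedule. Each treatment was represented by 1 single-cell library from 1 allograft, so no difference between the treatments could be tested, and treatment, mouse, tumor dissociation and library cannot be told apart.

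IL-1α and IL-1β are alarm cytokines of myeloid cells that bind IL-1R1 and recruit the accessory chain IL-1RAP to start MyD88 and NF-κB signalling. IL-1Ra, the product of Il1rn, occupies the same receptor without starting a signal, and IL-1R2 binds the agonists but lacks the signalling domain. The mRNA levels described below do not measure secretion, since IL-1β is made as a precursor that inflammasome-activated caspase-1 cleaves.

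The vehicle library held 4565 barcodes and 144767193 unique molecular identifiers (UMIs), and the TAK-931 library held 6558 barcodes and 77369283 UMIs. A barcode was kept where it held more than 2000 genes and less than 15% of its UMIs were mitochondrial, which left 3441 vehicle cells with a median of 40504 UMIs and 3488 TAK-931 cells with a median of 15097. The libraries shared 8 barcode sequences, of which 1 was kept in both. Cells were placed in classes by marker genes, with no IL-1 gene among the markers. Barcodes whose second-best class scored at least 0.7 of the best were set apart as mixed, and stricter gates lowered this limit to 0.4. J558 plasmacytoma-like cells made up 87.4% of the kept vehicle cells (3007 cells) and 3.27% of the kept TAK-931 cells (114 cells), whereas monocyte/macrophage-like cells made up 5.93% (204 cells) and 57.4% (2003 cells). Separate check markers were detected in at least 25% of cells for 7 of 8 genes in the monocyte/macrophage-like class, for 6 of 6 in the J558-like class and for 7 of 8 in neutrophil-like barcodes. Neutrophils carry few genes, and the 2000-gene limit left only 2 and 7 of them. Neutrophil-like barcodes were therefore read among barcodes of over 200 and at most 2000 genes, where 38 were found with vehicle and 62 with TAK-931. Levels are given as CPM, the UMIs of a gene per 1000000 UMIs summed over a class, with 95% intervals (exact Poisson for a level, exact for a ratio of counts). The intervals cover counting error only, not the spread between mice, and UMIs of a gene cluster in few cells, so that they are narrower than the spread between cells.

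The agonist genes are neighbours on mouse chromosome 2 (GRCm38, GENCODE M21). Il1a lies at chr2:129299610-129309972 and Il1b at chr2:129364570-129371139, both on the minus strand with 7 exons and 54.6 kb apart. Il1rn lies on the plus strand of the same chromosome at chr2:24336853-24351494, about 105013 kb away. The receptor genes Il1r2 (chr1:40074079-40125231) and Il1r1 (chr1:40225080-40317257) are 99.8 kb apart on the plus strand of chromosome 1, and Il1rap lies on the plus strand at chr16:26581704-26730117. The agonists and the antagonist share myeloid cells, but Il1b and Il1rn moved apart in the data below. The 250 bases before the RefSeq start sites of Il1a, Il1b and Il1rn (GRCm38.p6) are therefore shown on the gene strand, with capitals for motif matches. Il1rn has 3 listed starts, of which the first and second are shown.
Il1a, chr2:129309973-129310222, minus strand: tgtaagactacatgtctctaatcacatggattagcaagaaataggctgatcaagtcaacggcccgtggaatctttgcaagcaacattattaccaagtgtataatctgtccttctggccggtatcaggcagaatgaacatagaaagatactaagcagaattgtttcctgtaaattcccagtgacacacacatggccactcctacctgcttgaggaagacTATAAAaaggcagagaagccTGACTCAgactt
Il1b, chr2:129371140-129371389, minus strand: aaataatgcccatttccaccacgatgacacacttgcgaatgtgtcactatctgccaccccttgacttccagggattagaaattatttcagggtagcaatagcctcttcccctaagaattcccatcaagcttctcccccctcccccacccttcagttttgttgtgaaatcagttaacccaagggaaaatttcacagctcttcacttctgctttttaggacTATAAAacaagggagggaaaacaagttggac
Il1rn first start, chr2:24336610-24336859, plus strand: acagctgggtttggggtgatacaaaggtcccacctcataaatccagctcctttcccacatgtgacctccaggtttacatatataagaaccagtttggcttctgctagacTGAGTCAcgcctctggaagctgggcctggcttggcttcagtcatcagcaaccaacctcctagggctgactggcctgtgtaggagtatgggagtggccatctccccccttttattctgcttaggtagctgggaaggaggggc
Il1rn second start, chr2:24345041-24345290, plus strand: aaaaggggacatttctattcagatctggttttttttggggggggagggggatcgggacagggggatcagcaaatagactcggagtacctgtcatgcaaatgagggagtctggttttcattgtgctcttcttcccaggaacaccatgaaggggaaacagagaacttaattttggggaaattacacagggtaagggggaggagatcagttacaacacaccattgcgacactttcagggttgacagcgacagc
The letters searched were TATAAA on the gene strand and, on both strands, TGANTCA (AP-1), TTGCNNAA (C/EBP), GAGGAAGT (PU.1) and the longer motifs of NF-kB and of the interferon-stimulated response element. TATAAA began 32 bases before the start of Il1a and 31 bases before that of Il1b, and 7.59% of 32851 promoters held it. An AP-1 match began 12 bases before the start of Il1a and another 141 bases before the first start of Il1rn (6.75% of promoters). The NF-kB motif, found in 1.41% of promoters, were matched only before the third Il1rn start, as GGGTTTTTCC beginning 51 bases upstream. A match is a description of these letters, and no match says nothing about the factor. The C/EBP letters (9.56% of promoters) matched only before the first Il1r1 start, while the PU.1 letters (2.44%) and the interferon element (2.98%) matched before no start of the 6 genes.

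Over all kept cells, 5 of the 6 genes were at least 2-fold higher with TAK-931 and none was at least 2-fold lower. This count has to be read against the tissue, in which 33.9% of 15087 genes were at least 2-fold higher and 19.3% at least 2-fold lower. Il1b was at 14.7 CPM (14.0 to 15.3) in the vehicle library and 222 CPM (218 to 226) in the TAK-931 library, a log2 ratio of 3.92. Il1rn went from 3.34 to 141 CPM, a log2 ratio of 5.40, the largest among the 6. Il1a went from 0.454 to 6.97 CPM, Il1r1 from 2.08 to 10.2 CPM and Il1r2 from 1.73 to 15.4 CPM. These sums weight cells by depth, and the mean of each cell's CPM gave smaller log2 ratios of 2.40 for Il1a, 2.54 for Il1b, 4.15 for Il1rn, 1.23 for Il1r1 and 1.64 for Il1r2. Il1rap was at 7.61 and 7.92 CPM, and the interval of its log2 ratio of 0.06 ran from -0.09 to 0.21. To separate composition from level within classes, the difference was split by class, with each class weighted by its share of summed UMIs. These shares carry RNA per cell as well as cell number. For Il1b the change in class shares alone accounted for 111% of the difference, and the change in levels within classes was negative, at -23.3 CPM. For Il1rn the class shares accounted for 66.2%, and levels within classes added 46.6 CPM. The shares also gave over 100% for Il1a (125%), Il1r1 (121%) and Il1r2 (123%). Among the 6 genes, Il1rn was the only one for which the term for levels within classes was positive. In a sum over all cells, fewer cells of a type and less RNA per cell cannot be told apart, so levels are given by class from here on.

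**Figure D1:**
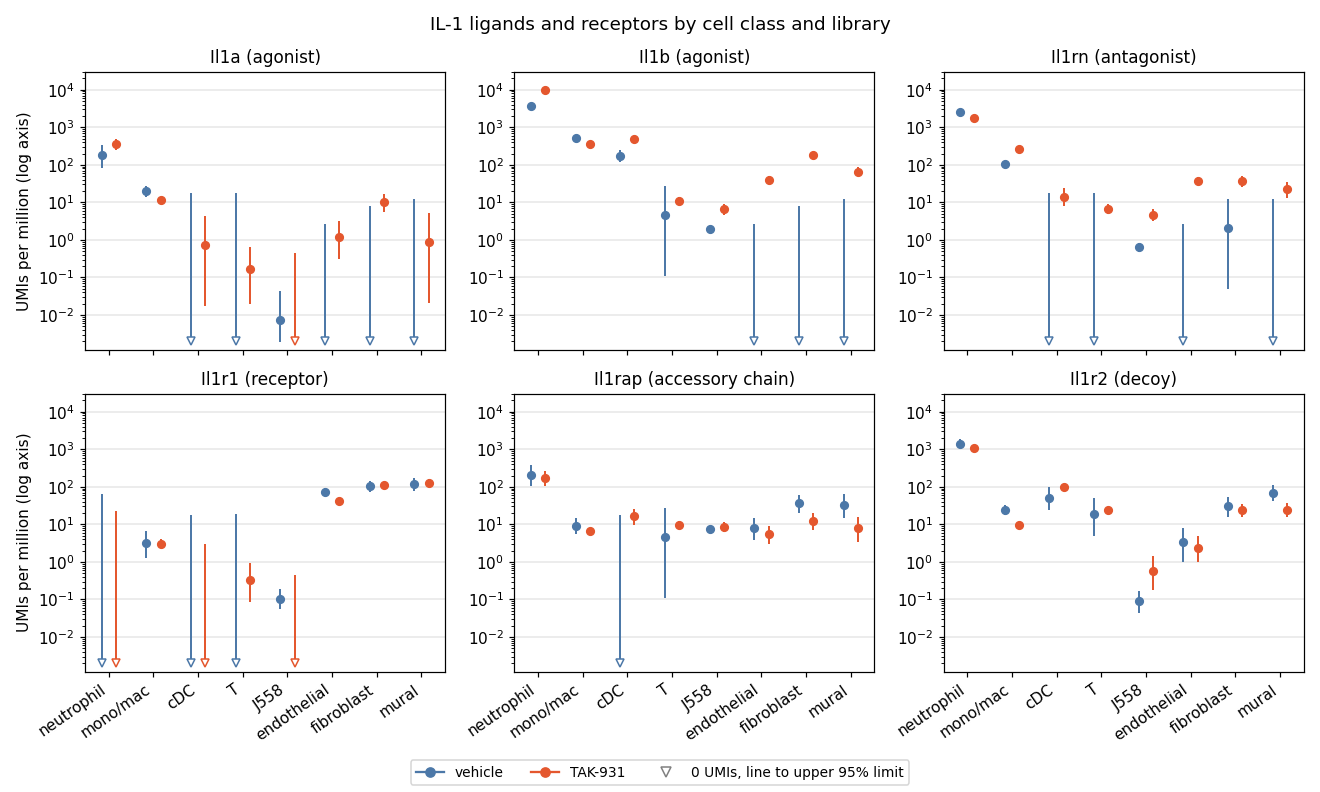
Levels of the 6 genes by cell class, in CPM on a log axis, with vehicle in blue, TAK-931 in orange and bars for 95% Poisson intervals. Il1b and Il1rn were highest in neutrophil-like barcodes, Il1r1 in endothelial-like, fibroblast-like and mural-like cells, and open triangles mark classes with 0 UMIs.

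In both libraries the agonists were read mainly from myeloid cells. Il1b was highest in neutrophil-like barcodes, followed in the vehicle library, among classes of at least 10 cells, by monocyte/macrophage-like and conventional dendritic-like cells. The 9 mature dendritic-like cells of that library had 473 CPM. In the TAK-931 library, mature dendritic-like cells (496 CPM, 10 cells) and conventional dendritic-like cells (475 CPM, 68 cells) had overlapping intervals, and monocyte/macrophage-like cells came next. Of the Il1b UMIs of kept cells, monocyte/macrophage-like cells held 65.0% with vehicle and 77.2% with TAK-931. Il1a, an agonist that is active without cleavage, was much sparser. It had 64 UMIs in all kept vehicle cells and 483 in TAK-931 cells, of which monocyte/macrophage-like cells held 79.7% and 79.9%. In J558-like cells there was 1 Il1a UMI among 3007 vehicle cells and none among 114 TAK-931 cells, which by a limit of 3 counts allows a share of cells with a UMI of up to 2.63%.

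Within monocyte/macrophage-like cells Il1b and the antagonist moved in opposite directions, whereas the direction of Il1a depended on the cells selected. Il1b was lower with TAK-931, at 530 CPM (503 to 560) against 357 CPM (351 to 363), a log2 ratio of -0.57 (-0.65 to -0.49). Il1rn was higher, at 109 CPM (96.1 to 122) against 262 CPM (257 to 268), a log2 ratio of 1.27 (1.10 to 1.45). Il1a was at 20.1 CPM (51 UMIs) and 11.6 CPM (386 UMIs), a log2 ratio of -0.80 (-1.22 to -0.34). Il1a rested on few cells, since 10 vehicle cells held 72.5% of its UMIs. Without the 10 cells of each library with most Il1a UMIs, a larger share of the vehicle class, the log2 ratio was 0.39, and without 5% of the cells of each library it was -1.30 (-2.20 to -0.27). With stricter gates it was -0.24 with an interval that held 0. The decoy gene Il1r2 was lower, at 24.5 against 9.71 CPM (log2 ratio -1.33). Il1r1 was at 3.16 and 3.07 CPM and Il1rap at 9.08 and 6.49 CPM, and the intervals of both ratios held 0. Of the 6 genes, 1 was thus at least 2-fold higher and 1 at least 2-fold lower, in a class where 8.62% of 10781 genes were at least 2-fold higher and 6.5% at least 2-fold lower.

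The class was divided by C1qa, C1qb and C1qc, complement genes of tissue macrophages, at a mean of log(1 + UMIs per 10000) of 1.5. C1q-high cells numbered 120 with vehicle and 1192 with TAK-931, and C1q-low cells without non-classical monocyte genes numbered 83 and 719. In C1q-high cells Il1b was at 442 and 287 CPM and Il1rn at 83.6 and 174 CPM. In C1q-low cells Il1b was at 763 and 465 CPM and Il1rn at 174 and 486 CPM. Both subsets therefore showed lower Il1b and higher Il1rn with TAK-931, with log2 ratios of -0.62 and -0.71 for Il1b and 1.06 and 1.49 for Il1rn. The change in subset shares, again of summed UMIs, accounted for -3.40% of the Il1b difference and 0.136% of the Il1rn difference in the whole class. Among C1q-high cells 1 of the 6 genes was at least 2-fold higher and 2 at least 2-fold lower, against 8.31% and 8.36% of all genes. Among C1q-low cells 1 of the 5 genes with at least 50 UMIs was higher and 1 lower, against 11.9% and 3.21%. The median log2 ratio over all genes was -0.09 in C1q-high and 0.12 in C1q-low cells. The gate markers of the class summed to 8783 CPM with vehicle and 11383 CPM with TAK-931, and the part of this difference in the IL-1 values was not tested.

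**Figure D2:**
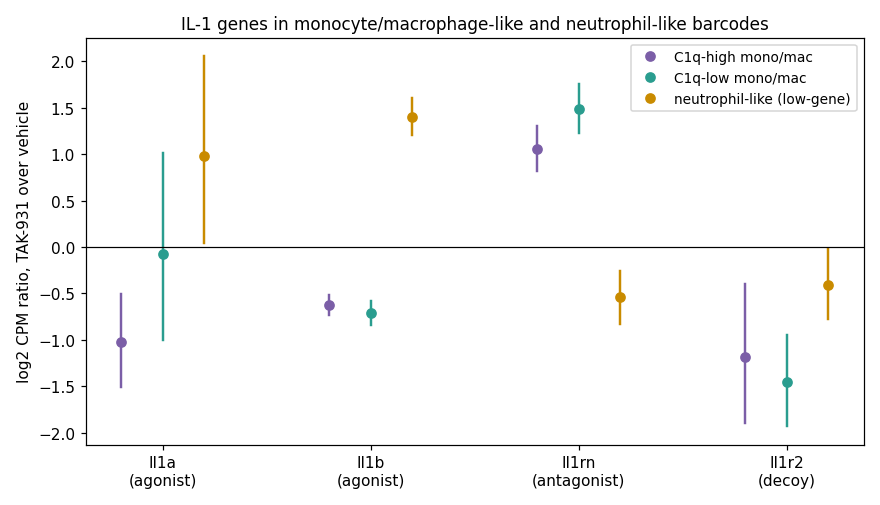
Log2 ratio of CPM, TAK-931 over vehicle, for the agonists, the antagonist and the decoy in C1q-high cells, C1q-low cells and neutrophil-like barcodes, with 95% counting intervals. Il1b lies below 0 and Il1rn above 0 in both monocyte/macrophage-like subsets, whereas neutrophil-like barcodes show Il1b at 1.41 and Il1rn at -0.54.

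Neutrophil-like barcodes showed the opposite pattern. Il1b was at 3741 CPM (3274 to 4256, 231 UMIs) with vehicle and 9915 CPM (9455 to 10390, 1750 UMIs) with TAK-931, a log2 ratio of 1.41 (1.21 to 1.61). Il1rn was at 2542 CPM (157 UMIs) and 1745 CPM (308 UMIs), a log2 ratio of -0.54 (-0.82 to -0.26). Nearly every barcode had an Il1b UMI, at 94.7% of 38 and 96.8% of 62, which left the share little room to differ. Il1a was at 178 CPM (11 UMIs) and 351 CPM (62 UMIs), a log2 ratio of 0.98 whose interval began at 0.04. A single barcode held 45.5% of the vehicle and 33.9% of the TAK-931 Il1a UMIs, and with barcodes of over 500 genes the interval was -0.12 to 1.89. Il1r2, which neutrophils are known to carry at high levels, was at 1409 and 1065 CPM, a log2 ratio of -0.40 with an interval that ended at -0.02 and that held 0 under 3 of 4 other barcode selections. Il1rap was at 211 and 170 CPM, and Il1r1 had 0 UMIs in both libraries. Of the 4 genes with at least 50 UMIs, 1 was at least 2-fold higher and none at least 2-fold lower, where 15.9% of 666 genes were higher and 10.4% lower. These barcodes were shallow, with medians of 1560.5 and 2579.5 UMIs. The 8 monocyte/macrophage gate markers summed to 1603 CPM in the vehicle and 4147 CPM in the TAK-931 neutrophil-like barcodes, 4 of them were at 0 with vehicle and 0 with TAK-931, and their part in the IL-1 values was not tested. With stricter gates, which left 37 and 59 barcodes, the log2 ratios of Il1b and Il1rn were 1.43 and -0.45.

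The balance of antagonist to agonists made this contrast explicit. In monocyte/macrophage-like cells there were 0.197 Il1rn UMIs per Il1a or Il1b UMI with vehicle (0.173 to 0.225) and 0.711 with TAK-931 (0.692 to 0.731). The ratio was 0.180 and 0.583 in C1q-high cells and 0.224 and 1.02 in C1q-low cells, so that with TAK-931 antagonist and agonist UMIs were about equal in number in the latter. Monocyte/macrophage-like barcodes of at most 2000 genes, which the main selection left out, gave 0.139 and 0.481. Neutrophil-like barcodes went from 0.649 (0.527 to 0.796) to 0.170 (0.150 to 0.192). Conventional dendritic-like cells had 19 Il1rn UMIs against 639 agonist UMIs with TAK-931, a ratio of 0.0297, and with vehicle 0 against 38. The 92 non-classical monocyte-like cells of the TAK-931 library stood apart from other monocytes, with Il1b at 947 CPM, Il1rn at 69.9 CPM and a ratio of 0.0734, and only 1 vehicle cell fell in this subset. Ratios between different genes depend on how well each transcript is captured, which is why only changes between libraries and classes are read from them.

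**Figure D3:**
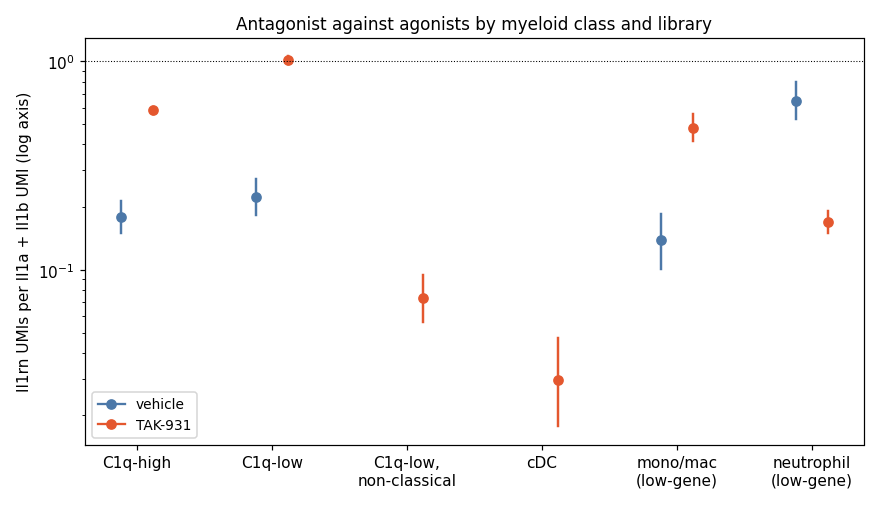
Il1rn UMIs per Il1a or Il1b UMI on a log axis, by myeloid class and library, with 95% counting intervals and a dotted line at equal numbers. The ratio is higher with TAK-931 in C1q-high and C1q-low cells and in low-gene monocyte/macrophage-like barcodes, and lower with TAK-931 in neutrophil-like barcodes.

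The share of cells with each transcript shifted in the same direction but by less, with a log2 change of Il1rn per agonist of 0.84 in monocyte/macrophage-like cells, against 1.85 by UMIs. After each cell was thinned to 4000 UMIs, which no kept cell of the class fell short of, cells with an agonist UMI but no Il1rn made up 45.0% of C1q-high cells with vehicle and 28.9% with TAK-931. In C1q-low cells the same share was 41.0% and 22.4%. Cells with Il1rn but no agonist went from 10.8% to 17.0% in C1q-high and from 8.43% to 29.1% in C1q-low cells. Cells with both made up 17.5% and 17.0% of C1q-high and 24.1% and 29.5% of C1q-low cells. The product of the shares with an agonist and with Il1rn was 17.7% and 15.7% in C1q-high and 21.2% and 30.4% in C1q-low cells, near the observed shares with both. Without thinning, Il1b was detected in 77.5% and 68.2% and Il1rn in 52.5% and 66.4% of monocyte/macrophage-like cells, and in J558-like cells Il1b was detected in 1.40% and 17.5% and Il1rn in 2.56% and 15.8%. The median depths behind these shares were 10318 and 14734 UMIs for monocyte/macrophage-like and 42442 and 76777 UMIs for J558-like cells.

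**Figure D4:**
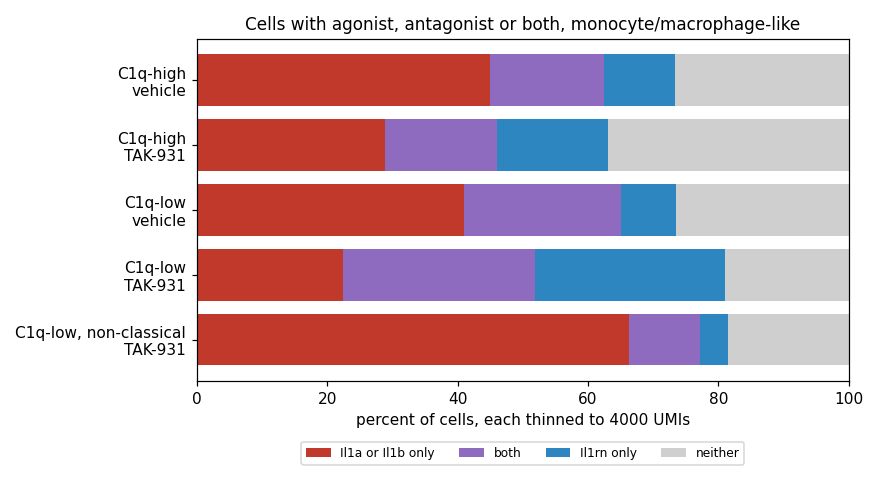
Share of monocyte/macrophage-like cells with an agonist UMI only, with Il1rn only, with both or with neither, each cell thinned to 4000 UMIs. Agonist-only cells take 45.0% and 41.0% of the vehicle C1q-high and C1q-low cells and 28.9% and 22.4% of the TAK-931 cells, and 66.3% of the non-classical cells.

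Conventional dendritic-like cells carried Il1b without much antagonist. Il1b was at 175 CPM (38 UMIs in 17 cells) with vehicle and 475 CPM (638 UMIs in 68 cells) with TAK-931, and 1 vehicle cell held 57.9% of the vehicle UMIs. The log2 ratio of 1.44 became 0.43 when barcodes of over 500 genes were used and 0.69 with stricter gates. Il1r2 was at 50.6 and 96.8 CPM in these cells, and its log2 ratio of 0.94 was -0.11 with stricter gates, so no direction is given for it. Il1r1 had 0 UMIs in both libraries, and Il1rap had 0 and 22 UMIs. The monocyte/macrophage gate markers summed to 713 and 1810 CPM in this class and the mature dendritic gate markers to 23.0 and 196 CPM. The part of both marker sets in the Il1b and Il1r2 values was not tested.

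The signalling receptor Il1r1 belonged to the stroma. It was at 74.3 CPM (61.2 to 89.5) in 80 vehicle endothelial-like cells and 40.9 CPM (34.3 to 48.4) in 177 TAK-931 endothelial-like cells, a log2 ratio of -0.86 (-1.23 to -0.49). In fibroblast-like cells it was at 105 CPM (16 cells) and 112 CPM (49 cells), and in mural-like cells at 118 CPM (14 cells) and 125 CPM (42 cells). Fibroblast-like and mural-like levels did not differ beyond their intervals from each other or between libraries, with log2 ratios of 0.09 (-0.36 to 0.56) and 0.08 (-0.45 to 0.64). The lower level in endothelial-like cells was also seen in the share of thinned cells with a UMI, at 20 of 80 and 19 of 177 cells, and with stricter gates, at a log2 ratio of -1.07. Markers of the other Il1r1-bearing classes were also lower in endothelial-like cells with TAK-931, with the 6 mural gate markers at 555 and 54.9 CPM (2 and 0 of them at 0) and the 6 fibroblast gate markers at 105 and 31.1 CPM (3 and 1 at 0). Endothelial-like cells without a UMI of any of these markers numbered only 6 with vehicle and 111 with TAK-931, and Il1r1 was at 108 CPM (11 UMIs) and 45.5 CPM (88 UMIs) in them, a comparison added after seeing the data. Mural-like cells also carried fibroblast markers, at medians of 142 and 69 UMIs per cell, so this class is not cleanly apart from fibroblasts. Monocyte/macrophage-like cells had 3.16 and 3.07 CPM of Il1r1, and J558-like cells had 14 UMIs in 3007 vehicle cells, 85.7% of them in 1 cell, and 0 UMIs with TAK-931. The endothelial-like class had 2 of 3 genes with at least 50 UMIs at least 2-fold higher and none lower, against 6.04% and 8.31% of all genes, and the higher genes were Il1b and Il1rn. Both reached 50 UMIs through the TAK-931 library alone (0 and 134 UMIs for Il1b, 0 and 122 for Il1rn), so nothing is read from this count. The fibroblast-like class had 2 of 4 higher and none lower, against 10.5% and 9.04%, again Il1b and Il1rn. With 0 and 301 UMIs for Il1b and 1 and 61 for Il1rn, they too reached the limit through the TAK-931 library, so nothing is read from this count either.

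Most Il1b and Il1rn UMIs of the stromal classes in the TAK-931 library lay in cells that also carried myeloid markers. With vehicle, Il1b had 0 UMIs in endothelial-like, fibroblast-like and mural-like cells. With TAK-931 it had 134, 301 and 75 UMIs in these classes, at 40.0, 178 and 66.4 CPM. Of these UMIs, 97.0%, 100% and 100% were in cells with at least 4 of the 8 monocyte/macrophage gate markers, and a single fibroblast-like cell held 65.1% of the class total. Cells with at least 4 of these markers numbered 29 of 177, 14 of 49 and 11 of 42. For Il1rn, with 122, 61 and 25 UMIs, the shares in such cells were 94.3%, 93.4% and 96.0%. The TAK-931 cells without any of these markers, which numbered only 31, 1 and 3 in the 3 classes, had no Il1b UMI, and with stricter gates 54, 9 and 14 UMIs were left in 121, 37 and 18 cells. In J558-like cells the share differed between the libraries. Il1b was at 1.96 CPM with vehicle and 6.58 CPM with TAK-931 and Il1rn at 0.637 and 4.73 CPM, and cells with at least 4 of these markers held 55.2% of the 261 vehicle and 87.7% of the 57 TAK-931 Il1b UMIs. Such cells numbered 13 of 3007 with vehicle and 37 of 114 with TAK-931. In the vehicle library 16 Il1b UMIs were in J558-like cells with none of the markers. For Il1rn the shares in cells with at least 4 markers were 11.8% of 85 and 73.2% of 41 UMIs, and 50 vehicle and 0 TAK-931 UMIs were in cells with none. The summed level of the markers in J558-like cells was 19.3 CPM with vehicle and 167 CPM with TAK-931, with none of the 8 at 0. Of the 3 genes with at least 50 UMIs, 2 were at least 2-fold higher in J558-like cells and none lower, against 7.83% and 5.53% of all genes. Whether the agonist UMIs outside myeloid cells were made there was not tested.

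The accessory chain Il1rap was found at low levels in most classes, tumor cells included. J558-like cells, which made up most vehicle cells, held 91.3% of its UMIs in the vehicle library and 13.7% in the TAK-931 library, where monocyte/macrophage-like cells held 39.3%. Its level there was 7.35 CPM (981 UMIs) with vehicle and 8.66 CPM (75 UMIs) with TAK-931, a log2 ratio of 0.24 (-0.12 to 0.58). Il1rap was higher in neutrophil-like barcodes (211 and 170 CPM), and in the TAK-931 library it was also read in monocyte/macrophage-like (6.49 CPM), T-like (9.49 CPM), NK-like (8.34 CPM) and conventional dendritic-like cells (16.4 CPM). In fibroblast-like cells it was at 36.5 CPM (18 UMIs) and 12.4 CPM (21 UMIs), a log2 ratio of -1.55 (-2.53 to -0.56). In mural-like cells it was at 32.0 CPM (10 UMIs) and 7.97 CPM (9 UMIs), a log2 ratio with an interval of -3.48 to -0.55 that held 0 with stricter gates, on 4 vehicle cells.

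The decoy receptor Il1r2 was found in myeloid, T-like, fibroblast-like and mural-like cells. In monocyte/macrophage-like cells it was lower with TAK-931 in both subsets, at 10.4 and 4.59 CPM in C1q-high cells and 60.7 and 22.2 CPM in C1q-low cells. In T-like cells it was at 18.7 CPM (4 UMIs in 13 cells) with vehicle and 24.7 CPM (292 UMIs in 629 cells) with TAK-931. Within the TAK-931 T cells, Il1r2 was at 46.0 CPM (37.6 to 55.8) in 120 cells with a Foxp3 UMI, the gene of regulatory T cells, and at 19.1 CPM (16.4 to 22.1) in 477 cells with CD8 genes. The Foxp3-positive cells also held 94 Il1b UMIs and the CD8 cells 33, and the monocyte/macrophage gate markers summed to 348 and 170 CPM in them. In cells with under 4 of these markers, a limit chosen after seeing the data, Il1r2 was at 36.0 CPM in 109 Foxp3-positive and 17.4 CPM in 456 CD8 cells, with 3 and 18 Il1b UMIs. In cells with none of the markers the order did not hold, at 10.4 CPM from 3 UMIs in 23 Foxp3-positive and 17.8 CPM from 26 UMIs in 114 CD8 cells. In 13 cells with Cd4 and no Foxp3 it was at 101 CPM from 14 UMIs. Dendritic markers summed to 181 CPM in the Foxp3-positive and 88.1 CPM in the CD8 cells. In those with under 4 monocyte/macrophage gate markers they summed to 174 and 91.3 CPM, and their part in the Il1r2 values was not tested. Thinned to 4000 UMIs, 11.7% of the Foxp3-positive and 5.24% of the CD8 cells had an Il1r2 UMI, against 0% of 71 NK-like cells, 0.877% of J558-like cells and 3.74% of monocyte/macrophage-like cells in the same library. The neighbouring gene Il1r1 had 4 UMIs in the 629 T-like cells. The ratio in T-like cells was 73.0 Il1r2 UMIs per Il1r1 UMI (28.2 to 270), whereas endothelial-like cells had 0.0584. In mural-like cells Il1r2 was at 70.3 CPM (22 UMIs) and 24.8 CPM (28 UMIs), a log2 ratio of -1.50 that with stricter gates, on 4 vehicle cells, had an interval holding 0. In fibroblast-like cells it was at 30.4 CPM (15 UMIs) and 23.7 CPM (40 UMIs). With TAK-931 both levels lay near that of T-like cells.

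The other genes of the pathway were read from 4 lists with 75 genes in all. In monocyte/macrophage-like cells the list of maturation and release genes had 1 of 16 genes at least 2-fold higher and none lower, with a median log2 ratio of 0.25 against -0.03 for all genes tested, of which 8.62% were higher and 6.5% lower. The higher gene was Casp4, a caspase that senses bacterial lipopolysaccharide, at 62.0 and 133 CPM. P2rx7, the ATP-gated channel upstream of the inflammasome, was at 14.6 and 29.1 CPM, and Ninj1, which ruptures the membrane of dying cells, at 268 and 475 CPM. Pycard, the inflammasome adaptor, was at 170 and 123 CPM. Of the 18 measured receptor signalling genes, 1 was higher (Tab1, from 1 and 109 UMIs) and 1 lower (Ecsit, 10.3 and 4.84 CPM), with a median of 0.17. Irak2, a kinase that sustains signalling from the receptor, was at 48.9 and 77.2 CPM and Irak1 at 62.4 and 41.9 CPM.

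Among the other family members, the related cytokine Il18 and its soluble inhibitor Il18bp also moved apart in monocyte/macrophage-like cells. Il18 was at 107 CPM (272 UMIs) with vehicle and 36.1 CPM (1200 UMIs) with TAK-931, a log2 ratio of -1.57 (-1.76 to -1.38). Il18bp was at 76.6 CPM (194 UMIs) and 194 CPM (6453 UMIs), a log2 ratio of 1.34 (1.13 to 1.55). Only 3 of the 14 genes of this list had at least 50 UMIs, and the third was Il18rap with 1 and 66 UMIs. Il18bp was also higher in endothelial-like cells, at 16.6 and 50.2 CPM. In neutrophil-like barcodes the measured gene of this list was Il36g, an agonist of a related receptor, at 243 and 827 CPM.

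Among 19 measured IL-1 response genes, many of which answer other signals as well, 5 were at least 2-fold higher and 1 lower in monocyte/macrophage-like cells, against 8.62% and 6.5% of all genes, with a median log2 ratio of 0.56 against -0.03. A gene without vehicle UMIs, Ptges, entered this count at its lower bound, and at a substitute of 0.5 UMIs, as used for all genes, the count was 6. The monocyte attractants Ccl7 and Ccl2 had log2 ratios of 2.53 (59.6 and 344 CPM) and 1.97 (116 and 455 CPM). Csf3 had 4 and 138 UMIs, and Ptges, a prostaglandin synthase gene, had 0 and 75 UMIs, at least 1.90-fold higher on a floor of 3 counts in the vehicle cells. The lower gene was Vcam1, an adhesion molecule, at 617 and 169 CPM. The neutrophil attractants Cxcl1 (242 and 189 CPM) and Cxcl3 (17.4 and 8.84 CPM) were also lower, by less than 2-fold.

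**Figure D5:**
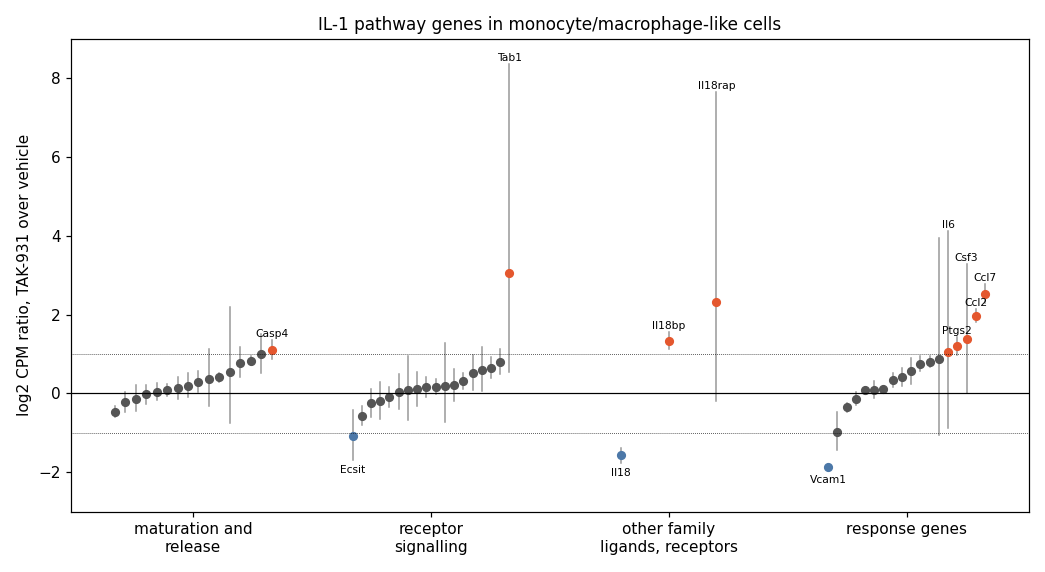
Log2 ratio of CPM, TAK-931 over vehicle, in monocyte/macrophage-like cells for the pathway genes with at least 50 UMIs, by list, with 95% counting intervals. Genes at least 2-fold apart (dotted lines) are named, Ccl7 lies at 2.53 and Vcam1 at -1.87, and the single points of Tab1 and Il18rap have wide intervals. Ptges, with 0 vehicle UMIs, is not drawn.

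Response genes were also read in the stromal classes that carried Il1r1. In endothelial-like cells 7 of 15 measured response genes were at least 2-fold higher and none lower, against 6.04% and 8.31% of all genes, with a median log2 ratio of 0.98 against -0.16 for all genes. Vcam1 was at 33.2 and 391 CPM in these cells, the reverse of its direction in monocyte/macrophage-like cells, and Ptgs2 had 2 and 51 UMIs. In fibroblast-like cells 9 of 21 were higher and none lower, against 10.5% and 9.04% of all genes, with a median of 0.92 against -0.17. Saa3, an acute-phase gene, was at 91.2 and 2418 CPM in fibroblast-like cells, a log2 ratio of 4.73 (4.31 to 5.19). Lif had 2 and 59 UMIs, and Mmp3, a matrix protease, at 647 and 373 CPM. Some of these UMIs share cells with myeloid markers, which summed to 320 and 678 CPM in fibroblast-like and 342 and 473 CPM in endothelial-like cells, and their part in these values was not tested. J558-like cells, with 14 and 0 Il1r1 UMIs, had 8 of 15 response genes higher and none lower, against 7.83% and 5.53% of all genes. The median there was 1.58 against 0.01, and myeloid markers summed to 19.3 and 167 CPM. Neutrophil-like barcodes had 2 of 13 response genes higher and 1 lower, near the 15.9% and 10.4% of all genes, where Ptgs2 was at 567 and 1637 CPM and Cxcl2 at 26186 and 36967 CPM. The receptor signalling lists of the stromal classes had 0 of 14 genes higher in endothelial-like and 1 of 7 in fibroblast-like cells, the latter Irak3, a brake on the pathway, at 16.2 and 42.6 CPM.

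The genes whose levels were most like those of the members were sought over 14 sums of class and library with at least 20 cells, among 5931 genes, by Pearson's r of log2(CPM + 1). These sums share libraries and differ in depth, and the values are descriptions. Il1b was most like Nlrp3, the inflammasome sensor (r = 0.98), and Clec4n was also among its closest genes. Il1rn was most like Clec4e, a pattern receptor of myeloid cells (r = 0.99), and Clec4d was also among its closest genes. Il1a was most like Trem3, Gpr84 and Cyp4f18, and Il1rap was most like Stfa2l1, Csta3 and Cstdc4. Il1r1 was most like Mxra7, Gstm2 and Phldb2. Il1r2 had the weakest best match, Rbpj at 0.93, followed by Ehd1 and Abtb2.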

How the data were processed

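The authors aligned reads of 10x Genomics 3' v3.1 libraries and counted UMIs with Cell Ranger 6.0.0, on mm10 per the submitters' processing notes (the study's methods name a human build, but the feature IDs are mouse Ensembl IDs). The deposited values were raw UMI counts per gene and barcode for 1 vehicle and 1 TAK-931 library. Barcodes were kept with over 2000 genes and under 15% mitochondrial UMIs, the study's limits. Each barcode was scored for 14 marker lists by the mean of log(1 + UMIs per 10000), scaled by its 30 highest kept barcodes. The highest score of at least 0.3 with at least 2 markers detected gave the class, and a runner-up of at least 0.7 of the best made the barcode mixed (44 and 213 kept barcodes, 20 and 44 unassigned). No doublet caller was run. Mixed barcodes were set apart, and a limit of 0.4 gave the stricter gates. Monocyte/macrophage-like cells near a limit (a score under 0.35 or a runner-up over 0.6 of the best) numbered 10 and 61. C1q-high cells had a mean of at least 1.5 over the C1q genes and non-classical cells, on their own genes, of at least 0.75. Members and lists were chosen with earlier results of these data known, and the gate limits were set after marker scores had been seen.

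With 1 library per group no test was run. The code was checked on simulated counts. CPM, exact Poisson, Clopper-Pearson and count-ratio intervals were computed in Python 3.11.15 with numpy 2.4.6 and scipy 1.17.1. Fold counts used genes with at least 50 UMIs over both libraries. Genes named were the 6 members, up to 4 pathway genes with the highest and 4 with the lowest ratio per list and class, and the 3 genes most like each member, of which 1 gene is not reported here. Il36 genes carry older symbols in the files. Alternatives covered the gene and mitochondrial limits, gates, scaling, free RNA, top cells and thinning.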

Additional observations from a re-analysis of the deposited data

Results flagged for a closer look

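Several genes had log2 ratios of opposite sign in different classes, with intervals on both sides that left out 0. The difference between classes was not tested, since each treatment was 1 library. Il1b was lower with TAK-931 in monocyte/macrophage-like cells, at -0.57 in kept cells and -1.11 in barcodes of at most 2000 genes. It was higher in neutrophil-like barcodes (1.41), conventional dendritic-like cells (1.44) and J558-like cells (1.75). The dendritic-like value was 0.43 with barcodes of over 500 genes. Summed monocyte/macrophage gate markers were also higher with TAK-931 in these classes, at 1603 and 4147, 713 and 1810, and 19.3 and 167 CPM in that order, and their part in the values was not tested. Il1a was at -0.80 and -1.66 in the same monocyte/macrophage-like sets, the latter from 12 UMIs in each library with 83.3% of those of vehicle in 1 barcode, and at 0.98 in neutrophil-like barcodes. Il1rn was higher in monocyte/macrophage-like cells, at 1.27 in kept cells and 0.67 in low-gene barcodes, in J558-like cells (2.89) and in fibroblast-like cells (4.15, from 1 vehicle UMI), and lower in neutrophil-like barcodes (-0.54). Il1r2 was lower in monocyte/macrophage-like cells, at -1.33 and -3.88 (the latter from 14 and 3 UMIs), and in mural-like cells (-1.50), at -0.40 in neutrophil-like barcodes, and at 0.94 in conventional dendritic-like and 2.68 in J558-like cells (from 12 and 5 UMIs). Several of these values were not stable. With stricter gates Il1r2 changed sign in conventional dendritic-like cells, and intervals held 0 for Il1r2 in mural-like cells (4 vehicle cells left) and for Il1a in monocyte/macrophage-like cells (-0.24). Il1a in the latter was at 0.39 without its 10 top cells, and the intervals of Il1a and Il1r2 in neutrophil-like barcodes held 0 under other selections.

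Barcodes with at least 15% mitochondrial UMIs, which no comparison used, also held IL-1 transcripts. Il1b was at 83.9 CPM in 143 vehicle and 378 CPM in 1369 TAK-931 barcodes, a log2 ratio of 2.17. The vehicle value came from 52 UMIs in 6 barcodes, and 10 TAK-931 barcodes held 67.8% of the Il1b UMIs of that library. The log2 ratios of Il1rn and Il1r2 there were 0.99 and 1.15. Il1r2 had 7 vehicle UMIs in 3 barcodes, and the interval of its ratio ran from 0.04 to 2.51. These barcodes were summed over all classes, so that class composition is part of each value.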

How the results depend on the processing

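No paired analysis was possible because each treatment was 1 library. Of 144 alternative values of the log2 ratios, 108 stayed within the interval of the reported value. In all, 7 changed sign, 2 of them against a reported interval that left out 0 and 5 (Il1rap and Il1r1) against one that held 0. Over all kept cells, barcodes of over 500 genes gave 3.66 for Il1b, 4.90 for Il1rn and 2.76 for Il1r2. The mean of each cell's CPM gave 2.40 for Il1a, 2.54 for Il1b, 4.15 for Il1rn, 1.23 for Il1r1 and 1.64 for Il1r2. Scaling by the median ratio, a shift of 0.16, gave 3.76 for Il1b, 5.25 for Il1rn and -0.10 for Il1rap. Without the 10 cells with most UMIs of the gene, the ratios were 4.76 for Il1a, 4.21 for Il1b, 5.70 for Il1rn and 3.53 for Il1r2. In monocyte/macrophage-like cells the same removal, 10 of 204 against 10 of 2003 cells, gave 0.39 for Il1a, -0.36 for Il1b, 1.56 for Il1rn, -0.76 for Il1r2 and 0.53 for Il1rap. Removal of 5% of the cells of each library, chosen after seeing the data, gave -1.30 for Il1a, -0.76 for Il1b and -2.19 for Il1r2. In the same class Il1b was at -0.71 with barcodes of over 500 genes and -0.47 with median-ratio scaling, and Il1a at -0.24 with stricter gates. C1q-low cells alone gave -0.079 for Il1a, -0.71 for Il1b and 1.49 for Il1rn, and C1q-high cells alone gave 1.06 for Il1rn. The change of Il1rn per agonist was 0.84 by thinned shares of cells. The settings for neutrophil-like and other classes were added after seeing the data. Neutrophil-like barcodes without an upper gene limit gave 1.72 for Il1b. In conventional dendritic-like cells Il1b was at 0.43 with barcodes of over 500 genes and 0.69 with stricter gates, and Il1r2 at -0.11 with stricter gates. Il1r1 in endothelial-like cells without mural or fibroblast gate markers was at -1.24, with 6 vehicle cells. The causes were not tested. Free RNA subtraction was run for monocyte/macrophage-like cells only. Low counts limit Il1a and the classes of few vehicle cells.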

Other observations

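Kept barcodes that met no class held part of the IL-1 transcripts. The 20 unassigned vehicle barcodes had 230 Il1b UMIs (816 CPM), which was 11.1% of the kept vehicle Il1b, with 47.4% of them in 1 barcode, and 43 Il1r2 UMIs (152 CPM). The 44 unassigned TAK-931 barcodes had 140 Il1b UMIs (222 CPM) and 64 Il1r2 UMIs (101 CPM). The 213 mixed TAK-931 barcodes had Il1b at 263 CPM and Il1rn at 114 CPM.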
